A study of Gallus gallus with 6 samples.

Results

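Leg muscle of Xinghua chicken embryos, a breed of Gallus gallus, was profiled for microRNAs (miRNAs) at embryonic day 11 (E11) and embryonic day 16 (E16), 5 days apart. The comparison took the 2 samples titled E16 against the 2 titled E11, out of 6 samples in all. The other 2 were leg muscle of newly hatched chicks and were not compared here. They entered the filter on low counts, the scaling between libraries and the estimate of the spread between samples. With the 4 embryonic samples alone 261 entries were tested, against 289 with all 6. Every embryo was female and the labels name no treatment, genotype or line beyond the breed. Whether a sample was 1 embryo or a pool, and whether samples of 1 age were different embryos, is not stated. The p-values therefore measure the spread between these samples alone, and that spread may be technical. The sample notes speak of RNA treated with RNase R and depleted of ribosomal RNA. What that meant for these small-RNA libraries is not stated there.

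The members were all miRNAs with a miRBase-style name. The 6 tables held 846 entries, of which 534 were named, and 475 of those had a count in at least 1 of the 4 embryonic libraries. After a filter on low counts 289 entries were tested, 199 named and 90 under provisional identifiers that the tables do not pair with a name. Library totals were 303556 and 589154 counts at E11 and 1202481 and 948589 at E16, so the E11 libraries were the shallower ones. Named entries took 57.1% and 61.2% of the counts at E11 and 62.9% and 62.1% at E16. Some provisional entries had nearly the same counts as a named miRNA in every library, among them miR-181a-5p, miR-10b-5p, miR-146c-5p and miR-125b-5p. If they hold the same reads, those reads are counted more than once in the library totals, CPM and shares of counts. Levels are given as CPM, the counts scaled to a common library total, after scaling by the trimmed mean of M-values (TMM). A single count was worth 2.92 and 1.44 CPM in E11 samples 1 and 2 and 0.799 and 1.03 CPM in E16 samples 1 and 2. Over the 137 entries with a mean of at least 100 CPM, the median difference between the samples of an age was 0.68 log2 units at E11 and 0.33 at E16.

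A miRNA is a short RNA cut from a hairpin precursor that guides Argonaute proteins to messenger RNAs and lowers their output. Each hairpin can give a product from its 5′ arm and one from its 3′ arm, written 5p and 3p. In vertebrate limb muscle, dividing myoblasts leave the cell cycle, fuse into myotubes and mature into contractile fibres, and in the chick secondary fibres are added over this stretch of embryonic life. A small set of striated muscle miRNAs (miR-499, miR-1, miR-206, miR-133, miR-486 and miR-208) is switched on by MyoD, myogenin, MEF2 or SRF, or sits inside myosin genes. Other miRNAs, such as miR-221 and miR-222, are abundant in dividing myoblasts and are known to hold back their exit from the cycle.

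At E16, 7 of the 289 tested entries were higher (2.42%) and 12 were lower (4.15%), together 6.57%, by edgeR's quasi-likelihood test at a Benjamini-Hochberg adjusted p of 0.05. "Rose" and "fell" are used below only for these. All 7 that rose were named: 5 striated muscle miRNAs (miR-133a-3p, miR-133a-5p, miR-133c-3p, miR-1a-3p and miR-499-5p), let-7b and miR-126-5p, an endothelial miRNA. Of the 12 that fell, 6 were named: the epithelial miR-205a, miR-205b and miR-200a-5p, and the little-studied miR-1625-5p, miR-1677-3p and miR-3528. The little-studied ones had few counts and, among the embryonic samples, passed the filter only through E11. The other 6 were provisional entries, among them some with counts close to those of miR-205a, miR-205b and miR-31-5p. Far more entries separated the ages than passed the test. In 79 entries (27.3%) both E16 samples lay above both E11 samples, and in 84 (29.1%) both lay below, the called entries included. At an unadjusted p of 0.05, 27 entries were higher and 43 lower. Fold changes over all tested entries centred near 0, with a median of −0.03 on the log2 scale and quartiles of −0.78 and 0.56. The smallest change that was called was 1.49 log2 units, in miR-126-5p, while 21 entries with a change of more than 2 log2 units were not called. The number of calls rested on every library. Refitted without E16 sample 1 or E16 sample 2, 0 entries were called, with 38 and 50 at an unadjusted p of 0.05. Without E11 sample 1, 11 were called, 7 of them among the 19. Without E11 sample 2, 6 were called, 4 of them among the 19. Without either hatchling sample 10 were called, all among the 19. Scaling by library totals alone moved the median fold change by −0.16, and directions below are given relative to the TMM scale.

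**Figure D1:**
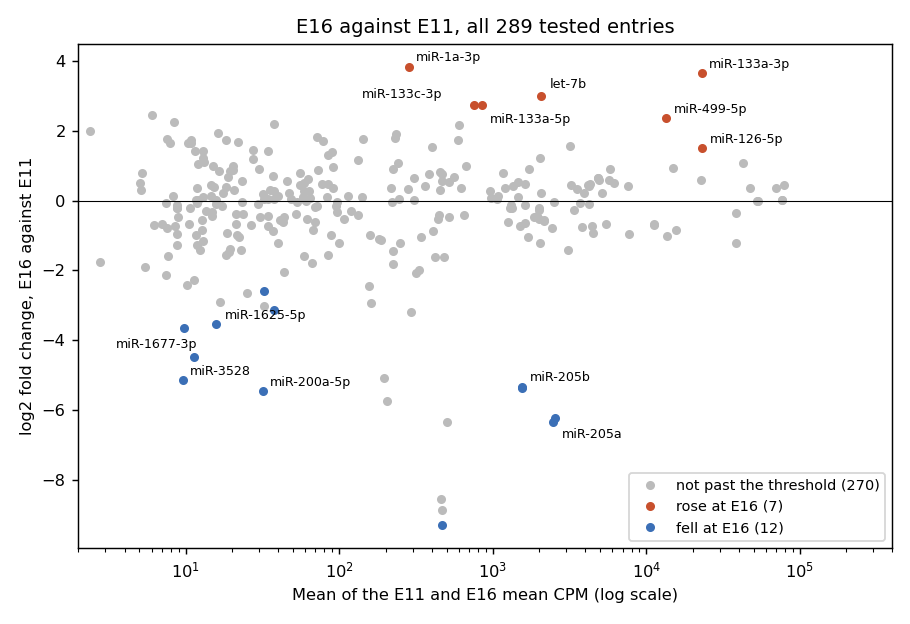
Log2 fold change of E16 against E11 (vertical axis) for each of the 289 tested entries, against its mean CPM over both ages (horizontal, log scale). Red points rose (7), blue points fell (12) and grey points did not pass the threshold. Called named miRNAs are labelled.

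Striated muscle miRNAs had the highest median fold change of the miRNA lists compared. All 10 tested members (of 13 with any count) were higher in both E16 samples than in both E11 samples, against 27.3% of all tested entries, and 5 of the 10 rose, against 2.42%. Their median log2 fold change was 2.26, with a range of 1.57 to 3.83. Counts of members that lie higher or lower in both E16 samples, here and below, are to be read against 27.3% and 29.1% of all tested entries. Together they took 1.28% and 1.04% of all counts at E11 and 7.37% and 7.92% at E16, a difference of 6.48 percentage points. The exact two-sided permutation test gave p = 0.333, the smallest that 2 samples against 2 can give. Without E11 sample 1 or 2 the number of members called was 2 and 1, without either hatchling sample 4, and without either E16 sample 0. Every member that could be fitted stayed positive in each of these 6 fits. Fitted on the 4 embryonic samples alone, 9 members could be fitted and all 9 were positive. Of the 10, miR-1a-2-5p passed the filter on low counts only through the hatchlings. miR-1a-1-5p passed it, among the embryonic samples, only through E16. Neither adds independent support to the count of 10. In the lists below, rare members may likewise have passed through a single age. In bulk tissue, fewer muscle cells at E11 and less of a miRNA per muscle cell cannot be told apart.

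miR-133a-3p, which restrains SRF and is transcribed together with miR-1, was the most abundant of them at E16. It was at 3221 and 3545 CPM in the E11 samples and at 47332 and 37543 CPM in the E16 samples. The groups were far apart and the samples of each age close together. The log2 fold change was 3.65 (SE 0.43, adjusted p = 0.00558). miR-133a-3p made up 28.3% and 40.1% of the list's counts at E11 and 66.9% and 48.4% at E16. Without it, the rest of the list took 0.921% and 0.624% of all counts at E11 and 2.44% and 4.09% at E16.

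The 5p arm of the same hairpin, miR-133a-5p, was much rarer, at 181 and 261 CPM at E11, against 1535 and 1432 CPM at E16. It rose by 2.74 log2 units (SE 0.54, adjusted p = 0.0322). miR-133c-3p, a close relative of miR-133a-3p, was at 245 and 150 CPM in the E11 samples and 1324 and 1299 CPM at E16. Its log2 fold change was 2.74 (SE 0.48, adjusted p = 0.0213). miR-133 mature sequences are nearly alike, and the sources do not say how reads that match more than 1 of them were assigned, so the split between miR-133a, miR-133b and miR-133c is uncertain.

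miR-1a-3p, which promotes myoblast differentiation and targets the histone deacetylase HDAC4 in mammals, had the highest fold change of the list. It had only 16 and 20 counts at E11 (46.7 and 28.8 CPM) and 550 and 601 counts at E16 (440 and 621 CPM). It rose by 3.83 log2 units (SE 0.66, adjusted p = 0.0213). Even so it stayed far less abundant than miR-133a-3p in each of the 4 libraries.

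miR-499-5p, encoded within a slow myosin gene and linked to the slow fibre programme in mice, was the most abundant member in E11 sample 1. It was at 5824 and 3002 CPM at E11, against 15191 and 29852 CPM at E16. The samples were uneven within both ages, but the ages did not overlap. It rose by 2.35 log2 units (SE 0.51, adjusted p = 0.0392), and without E11 sample 1 the fold change was 3.03. It was the least stable of the 5 calls, held in 3 of the 16 alternative fits. Its other arm, miR-499-3p, was at 155 and 285 CPM in the E11 samples and 905 and 1079 CPM at E16, a log2 fold change of 2.17 (SE 0.51) that just missed the threshold at an adjusted p of 0.0544.

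miR-206, the skeletal-muscle-specific relative of miR-1, did not pass the threshold. It was at 1653 and 1550 CPM at E11, already well above miR-1a-3p, and at 3948 and 5572 CPM at E16. The log2 fold change was 1.57 (SE 0.51, adjusted p = 0.116). miR-133b, which shares its locus with miR-206, was at 55.5 and 18.7 CPM at E11, against 91.1 and 147 CPM at E16 (log2 fold change 1.72, SE 0.71, adjusted p = 0.193). Its fold change was 2.78 without E11 sample 1 and 1.08 without E11 sample 2. The 5p products of miR-1a were near the limit of detection. miR-1a-1-5p had 2 and 3 counts at E11 and 21 and 14 at E16, and miR-1a-2-5p had 0 and 1 against 5 and 4. miR-133c-5p, miR-1b-3p and miR-1b-5p had at most 3 counts in any embryonic library, all in E16 sample 2, and were not tested. miR-208 and miR-486 had no entry in any library.

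**Figure D2:**
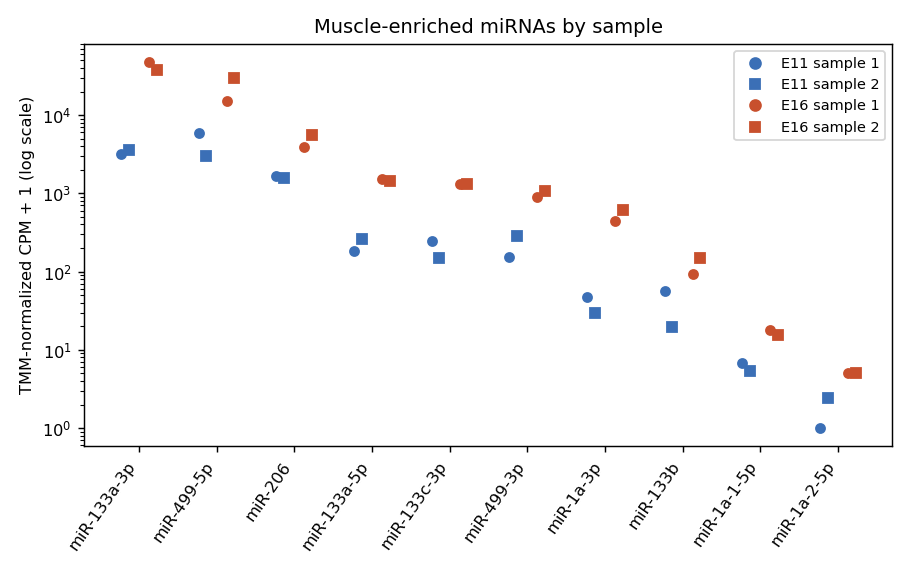
CPM + 1 (log scale) of the tested striated muscle miRNAs in each E11 and E16 sample. Each point is 1 sample. Every member lies higher at E16, from miR-1a-2-5p at 4.0 and 4.13 CPM to miR-133a-3p at 47332 and 37543 CPM.

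Matched by name to the RefSeq annotation of the GRCg7b assembly, 184 of the 199 named tested entries had a miRNA gene. They matched 163 genes, of which 112 lay within the span of a protein-coding gene. Of the muscle members, miR-133a-1 and miR-1a-2 lay within 10000 bases of each other inside the span of MIB1. The 4 tested products matched to that pair were all higher in both E16 samples, against 27.3% of all entries, and 3 of them rose, against 2.42%. Among the 4, miR-1a-2-5p passed the filter on low counts only through the hatchlings. miR-133a-3p, miR-133a-5p and miR-1a-3p also match miR-133a-2 and miR-1a-1 genes elsewhere, so their values are not those of the MIB1 locus alone. miR-133b and miR-206 were neighbours too, outside any protein-coding gene, with log2 fold changes of 1.72 and 1.57. miR-499 lay within MYH7B, a slow myosin heavy chain gene. The levels of the host genes were not analysed here.

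let-7b was the only member of the let-7 family that rose. The let-7 family accumulates as embryonic cells differentiate in many animals and represses growth genes such as LIN28, HMGA2 and IGF2BP1. let-7b was at 602 and 311 CPM in the E11 samples and 3349 and 3973 CPM at E16, a rise of 3.01 log2 units (SE 0.46, adjusted p = 0.0147) that came to 3.68 without E11 sample 1. The most abundant member, let-7f-5p, was at 25150 and 10723 CPM at E11, against 27376 and 26828 CPM at E16 (log2 fold change 0.60, SE 0.44, adjusted p = 0.445). The E16 values of let-7f-5p thus lay only just above E11 sample 1. Its log2 fold change was 1.46 without E11 sample 1 and 0.09 without E11 sample 2. let-7a-5p was at 4831 and 2746 CPM in the E11 samples and 5782 and 5988 CPM at E16 (adjusted p = 0.345), and its counts could not be told from those of let-7j-5p, listed with nearly the same values in every library. Of the 14 tested let-7 products (of 16 with any count) 8 were higher in both E16 samples (27.3% of all entries were) and 2 were lower in both (29.1%), with a median log2 fold change of 0.62. Together let-7 took 5.09% and 2.60% of the counts at E11 and 5.20% and 5.11% at E16. Both let-7a-5p and let-7j-5p enter the 8 and these shares, so the same reads may be counted more than once. In the RefSeq annotation let-7b neighbours let-7a-3 within the span of PPARA, and the 3 tested products matched to those genes had log2 fold changes of 0.64, 1.41 and 3.01. let-7a is also made from other loci, so its values are not those of the PPARA locus alone.

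Beyond the striated muscle set, miRNAs known from mammalian or chick myoblasts to promote differentiation had 14 tested products, of 18 with a count in an embryonic library. These products came from miR-24, miR-26, miR-27, miR-29, miR-128, miR-181 and miR-214. The list also held miR-322, miR-378, miR-424 and miR-503, which had no tested product. None of the 14 passed the threshold, 1 was higher (27.3% of all entries were) and 4 were lower (29.1%) in both E16 samples, and their median log2 fold change was −0.05 beside −0.03 for all tested entries. miR-27b-3p, which targets PAX3 in mouse muscle progenitors, was the member higher in both. It was at 4734 and 4423 CPM at E11, against 7111 and 6633 CPM at E16, a log2 fold change of 0.59 (SE 0.33, adjusted p = 0.336). miR-214, which targets EZH2 in mouse myoblasts, was at 570 and 492 CPM at E11 and lower, at 345 and 231 CPM, at E16 (log2 fold change −0.88, SE 0.50, adjusted p = 0.332). miR-181a-5p was among the most abundant miRNAs at both ages, at 74687 and 31121 CPM in the E11 samples and 54315 and 50440 CPM at E16, and these samples overlapped.

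Among miRNAs known to hold back myogenesis or to keep muscle precursors undifferentiated, 8 products were tested (of 14 with any count). The list held miR-23, miR-31, miR-125, miR-155, miR-221, miR-222 and miR-489, of which miR-155 had no tested product. None of the 8 passed the threshold. In 6 of the 8, against 29.1% of all tested entries, both E16 samples lay below both E11 samples, and the median log2 fold change was −1.22. In the other direction, miR-23b-3p was higher in both E16 samples, at 38.0 and 43.3 CPM at E11, against 72.7 and 68.2 CPM at E16 (log2 fold change 0.79, SE 0.49, adjusted p = 0.355). The abundant miR-125b-5p overlapped between the ages. It was at 1875 and 3307 CPM at E11, against 2027 and 1427 CPM at E16 (log2 fold change −0.59, SE 0.41, adjusted p = 0.431). miR-222a, which targets the cell cycle inhibitor p27, was at 4071 and 4874 CPM at E11, against 2035 and 1329 CPM at E16 (log2 fold change −1.41, SE 0.37, adjusted p = 0.0717). miR-221-3p, with the same target, was at 2596 and 1923 CPM in the E11 samples and 1148 and 1058 CPM at E16 (log2 fold change −1.03, SE 0.38, adjusted p = 0.145). Its other arm, miR-221-5p, was also lower in both E16 samples, with a log2 fold change of −1.45 (SE 0.62, adjusted p = 0.207). The fold change of miR-221-5p was −1.81 without E11 sample 1 and −0.73 without E11 sample 2. miR-489-3p, known for keeping mouse satellite cells quiescent, was at 108 and 67.8 CPM at E11, against 18.4 and 40.3 CPM at E16 (log2 fold change −1.58, SE 0.57, adjusted p = 0.143). As a whole this list took 1.26% and 1.66% of counts at E11 and 0.689% and 0.522% at E16.

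**Figure D3:**
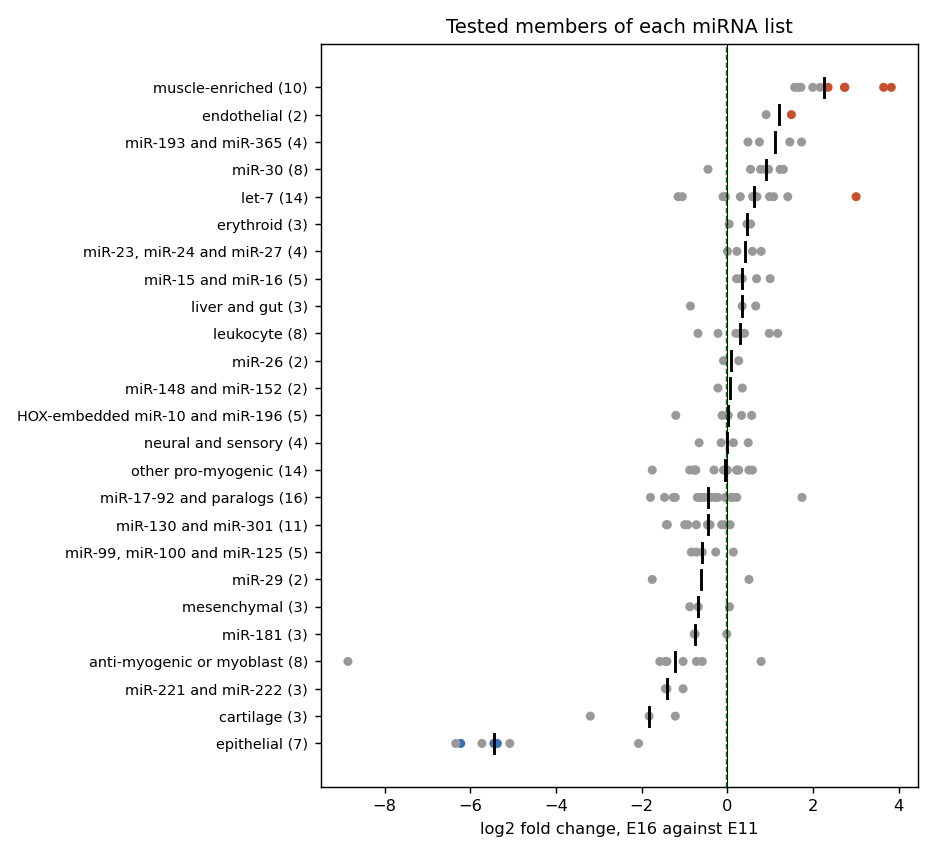
Log2 fold change of E16 against E11 for each tested member (points) of the miRNA lists. Coloured points rose or fell, grey points did not pass the threshold, black bars are list medians and the dashed green line is the median of all tested entries (−0.03). Striated muscle members lie at 1.57 and above and epithelial members at −2.07 and below.

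Several abundant miRNAs took a larger share of the counts at E16. The 4 named miRNAs with the largest gains were miR-133a-3p (3.99 percentage points), miR-22-3p (2.75), miR-126-5p (2.12) and miR-499-5p (1.81). Together they took 4.97% and 5.98% of counts at E11 and 10.7 points more, on average, at E16. miR-22-3p, a miRNA abundant in striated muscle that was in no list, was at 24250 and 30743 CPM in the E11 samples and 56806 and 58188 CPM at E16. Its log2 fold change of 1.06 (SE 0.29) missed the threshold with an adjusted p of 0.0738, although the ages were well separated. The 2 most abundant named miRNAs did not pass the threshold. miR-10b-5p was at 73314 and 78223 CPM at E11, against 60310 and 93493 CPM at E16, and miR-148a-3p was at 68323 and 53748 CPM in the E11 samples and 74647 and 80974 CPM at E16.

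The largest drop in share was that of miR-10a-5p, a miRNA encoded in the HOXB cluster. miR-10a-5p took 1.45% of counts in E11 sample 1 but 10.99% in E11 sample 2, and 3.13% and 1.63% in the E16 samples. In CPM it was at 12845 and 93330 at E11 and 30108 and 15951 at E16, so E11 sample 2 stood apart and the ages overlapped (log2 fold change −1.20, SE 0.80, adjusted p = 0.403). Without E11 sample 2 its log2 fold change was 0.82. The next largest drop was that of miR-100-5p, at 18456 and 21801 CPM at E11, against 9704 and 12783 CPM at E16 (log2 fold change −0.84, SE 0.32, adjusted p = 0.154).

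Markers of other cell types differed between the ages as well. Epithelial miRNAs keep surface and lining epithelia in their state, miR-200 and miR-205 by repressing ZEB1 and ZEB2. All 7 tested members (of 8 with any count) were lower in both E16 samples than in both E11 samples, against 29.1% of all tested entries, and 3 fell, against 4.15%. The median log2 fold change was −5.45. Among the embryonic samples only the E11 pair carried the miR-200 group past the filter on low counts, so not all 7 directions are independent of the filter. The list took 1.18% and 1.21% of counts at E11 and 0.0447% and 0.0158% at E16, a difference of −1.16 points (exact two-sided permutation p = 0.333, the smallest possible).

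miR-205a was at 6408 and 3552 CPM at E11, as abundant as miR-499-5p, and at 83.1 and 49.6 CPM at E16. It fell by 6.23 log2 units (SE 1.15, adjusted p = 0.0240), or by 5.62 without E11 sample 1. miR-205b was at 2836 and 3245 CPM in the E11 samples and 84.7 and 62.0 CPM at E16, and fell by 5.37 log2 units (SE 0.63, adjusted p = 0.00558). Both were high in both E11 samples. The miR-200 group was uneven at E11 and mostly in sample 2. miR-429-3p was at 254 and 1731 CPM at E11, against 20.8 and 3.10 CPM at E16, and miR-200b-3p at 90.5 and 675 CPM against 20.0 and 2.07 CPM, and neither passed the threshold (adjusted p = 0.0656 and 0.106). miR-200a-3p, with 55 and 443 counts at E11 and 18 and 0 at E16, did not pass either (adjusted p = 0.0951). Its other arm, miR-200a-5p, had 15 and 56 counts at E11 and 2 and 1 at E16, and fell by 5.45 log2 units (SE 0.77, adjusted p = 0.0128). The counts of miR-200a-5p were 50.7 times higher at E11 for the depth of the libraries (95% exact interval 16.7 to 252, counting error only). Among the embryonic samples only the E11 pair carried miR-200a-5p past the filter on low counts. The same holds for miR-200a-3p, miR-200b-3p and miR-429-3p, so the direction of these products is not independent of the filter. miR-429, miR-200a and miR-200b are neighbours in the RefSeq annotation, and their 4 tested products had a median log2 fold change of −5.59. miR-203a, a miRNA of stratified epidermis, was at 660 and 362 CPM in the E11 samples and 205 and 37.2 CPM at E16 (adjusted p = 0.482).

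The epithelial counts moved with the ages in the opposite direction to the muscle counts. Refitted without the named epithelial entries, 4 of the 10 muscle members were called and all 10 stayed positive. Provisional entries with counts close to those of miR-205a and miR-205b stayed in that fit. The named list took only 1.18% and 1.21% of counts at E11 and less at E16, so leaving it out could change the scaling little. Leaving out entries also does not take epithelial cells out of the tissue, so the refit cannot decide what part they had. The part of epithelial tissue in the muscle result was not tested.

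The endothelial miRNA miR-126, which lies within EGFL7 and supports vessel integrity, was higher at E16. miR-126-5p was at 10728 and 13496 CPM at E11, against 36800 and 31467 CPM at E16, and rose by 1.49 log2 units (SE 0.31, adjusted p = 0.0360). The call was held in 8 of the 16 alternative fits and in none that left out 1 library. miR-126-3p was at 3032 and 5045 CPM in the E11 samples and 9680 and 5436 CPM at E16 (log2 fold change 0.90, SE 0.42, adjusted p = 0.253). Both arms together took 1.55% and 2.18% of counts at E11 and 4.84% and 3.77% at E16. The muscle list's share was 0.828 and 0.477 times the endothelial share at E11 and 1.52 and 2.10 times at E16. So the summed muscle list was also higher at E16 relative to miR-126, in both samples. miR-133a-3p made up 66.9% and 48.4% of the list's counts at E16, and the members were not compared with miR-126 singly. Log2 fold changes of the members ran from 1.57, in miR-206, to 3.83, beside 1.49 for miR-126-5p.

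None of the cartilage or mesenchymal products passed the threshold. The 3 tested cartilage products lay lower in both E16 samples, as did 29.1% of all entries, with a median log2 fold change of −1.83. miR-455-5p, which lies within the cartilage collagen gene COL27A1, was at 3268 and 2426 CPM at E11, against 1265 and 1186 CPM at E16 (log2 fold change −1.22, SE 0.37, adjusted p = 0.0951). miR-140-3p, the best known chondrocyte miRNA, was at 914 and 146 CPM in the E11 samples and 48.8 and 66.1 CPM at E16 (log2 fold change −3.20, SE 0.91, adjusted p = 0.0836). Its level in E11 sample 1 was far above that in E11 sample 2. The log2 fold change of miR-140-3p was −1.22 without E11 sample 1 and −4.01 without E11 sample 2. Of the 3 mesenchymal products of miR-199 and miR-214, 2 were lower in both E16 samples, against 29.1% of all entries, and miR-199-3p overlapped between the ages. The most abundant, miR-199-5p, was at 6460 and 6910 CPM at E11, against 4345 and 4009 CPM at E16 (log2 fold change −0.68, SE 0.31, adjusted p = 0.250). These cartilage and mesenchymal shares were not tested for a part in the muscle result.

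Blood, neural, liver and gut markers did not pass the threshold. The 3 tested erythroid products overlapped between the ages, with miR-451 at 2643 and 2829 CPM in the E11 samples and 5130 and 2387 CPM at E16. Of the 8 leukocyte products 3 were higher in both E16 samples, against 27.3% of all entries, among them miR-142-5p at 61.3 and 101 CPM at E11, against 209 and 160 CPM at E16 (adjusted p = 0.349). The most abundant leukocyte product, miR-146c-5p, was at 19247 and 8389 CPM at E11, against 8488 and 8684 CPM at E16, which overlapped (log2 fold change −0.69, SE 0.42, adjusted p = 0.355). The leukocyte list took 2.19% and 1.01% of counts at E11 and 0.921% and 0.915% at E16. Nearly all of those counts were miR-146c-5p, whereas 6 of the 8 products had positive fold changes, as had 142 of all 289 entries. Among 4 neural and sensory products 1 was higher in both E16 samples, near the 27.3% of all entries, and the 3 liver and gut products overlapped. Smooth muscle miR-143 and miR-145 had no entry in any library. The pluripotency-associated miR-302 and miR-367 list had 3 entries with a single count each, all in E11 libraries.

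**Figure D4:**
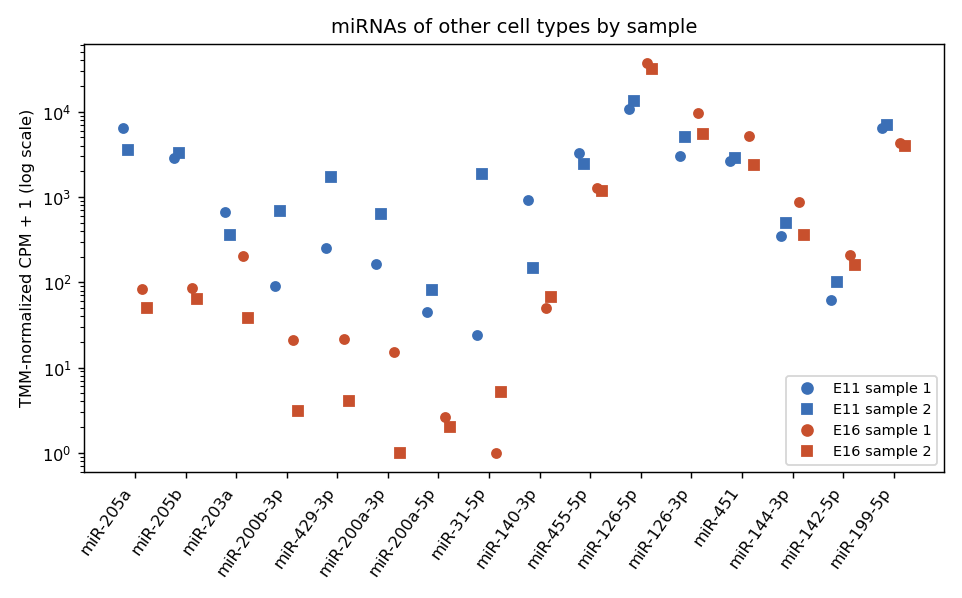
CPM + 1 (log scale) of markers of other cell types, and of miR-31-5p, in each E11 and E16 sample. A CPM of 0 is drawn at 1. Epithelial members lie lower at E16, miR-203a the least so, and miR-126-5p lies higher, while miR-451 overlaps.

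miR-31-5p, a list member that restrains MYF5 in mouse satellite cells and is also abundant in epidermis, had nearly all its counts in 1 library. It had 8 and 1277 counts at E11 and 0 and 4 at E16, a log2 fold change of −8.86 (SE 2.27, adjusted p = 0.0656). Its other arm, miR-31-3p, had 79 counts in E11 sample 2 and 0 in the other 3 embryonic libraries, and did not pass the filter on low counts. Among the embryonic samples only those of E11 carried miR-31-5p past that filter. E11 sample 2 was also the library with the higher miR-200 counts, and miR-205b was slightly higher there. miR-205a and miR-203a were instead higher in E11 sample 1, at 6408 and 660 CPM against 3552 and 362 CPM. The epithelial list took 1.18% and 1.21% of counts in E11 samples 1 and 2. A link between miR-31 and epithelial tissue was not tested.

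The miR-17-92 cluster and its paralogs promote cell cycle entry. Of their 16 tested products 6 were lower and 1 was higher in both E16 samples, against 29.1% and 27.3% of all entries, with none past the threshold and a median log2 fold change of −0.45. miR-20b-5p was at 1928 and 1988 CPM in the E11 samples and 1272 and 1253 CPM at E16 (log2 fold change −0.63, SE 0.40, adjusted p = 0.369), while miR-17-5p overlapped at 1609 and 2196 CPM against 2251 and 2182 CPM. Of 11 tested miR-130 and miR-301 products 5 were lower and none higher in both E16 samples, against 29.1% and 27.3% of all entries, and none passed (median −0.46). miR-130b-3p was at 6291 and 4690 CPM at E11, against 3309 and 3343 CPM at E16 (log2 fold change −0.72, SE 0.35, adjusted p = 0.257).

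The 5 tested products of miR-15 and miR-16, which repress cyclins and BCL2, were all higher in both E16 samples, against 27.3% of all entries, with a median log2 fold change of 0.35. With library totals as the only scaling 2 of the 5 were, against 60 of all 289 entries. miR-15a had the highest fold change, at 307 and 588 CPM in the E11 samples and 777 and 1013 CPM at E16 (log2 fold change 1.00, SE 0.47, adjusted p = 0.256). Of the 8 tested miR-30 products 6 were higher and 1 lower in both E16 samples, against 27.3% and 29.1% of all entries (median 0.90), and 4 were higher with library totals as the only scaling. miR-30a-5p was at 827 and 1592 CPM at E11, against 2717 and 2959 CPM at E16 (log2 fold change 1.23, SE 0.41, adjusted p = 0.120). The most abundant miR-30, miR-30c-5p, was at 7269 and 13346 CPM in the E11 samples and 24608 and 14342 CPM at E16 (adjusted p = 0.270).

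miR-193 and miR-365 are known for promoting brown fat and, in mice, muscle-fat lineage choice. All 4 tested products had positive fold changes, as had 142 of all 289 entries. In 3 of them both E16 samples were higher, against 27.3% of all entries, and none passed. miR-193a-3p was at 289 and 258 CPM at E11, against 1229 and 589 CPM at E16 (log2 fold change 1.73, SE 0.50, adjusted p = 0.0836). Of the 5 tested products of miR-99, miR-100 and miR-125, none passed and 2 were lower in both E16 samples, against 29.1% of all entries. With library totals as the only scaling 4 of the 5 were lower, against 102 of all 289 entries.

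Summed over arms and lettered members of 1 miRNA number, 202 families were tested, 112 of them named. Of the 202, 6 rose (2.97%) and 5 fell (2.48%), 5.45% in all. TMM scaling moved the median over all families to a log2 fold change of 0.31, and values below are given on that scale and should be read against it. The families that rose were miR-1 (log2 fold change 4.06), miR-133 (3.95), miR-499 (2.73), miR-126 (1.75), miR-22 (1.45) and 1 unnamed entry. miR-22 was called as a family and not as single products, although miR-22-3p held nearly all the family's counts. miR-206, a family of 1 entry with the same counts, had a log2 fold change of 1.57 as an entry and 1.96 as a family. The family call of miR-22 is therefore not further evidence beside the value of miR-22-3p. The calls of the miR-22 and miR-499 families were each held in 4 of 15 alternative fits, and that of miR-133 in 13. The named families that fell were miR-205 (−5.46), miR-3528 and miR-1677. miR-206 (1.96, adjusted p = 0.0742), miR-193 (1.70, adjusted p = 0.0708) and miR-27 (0.97, adjusted p = 0.0841) did not pass. With library totals as the only scaling, the families that rose numbered 2 and those that fell 7.

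Both arms were tested for 47 hairpins. In 35 of them the fold changes of both arms had the same sign, positive in 16 and negative in 19, and in 12 the signs differed. None of these signs is a test. The log2 ratio of 5p to 3p counts shifted by less than 1 between the ages in 40 of the 47, with a median absolute shift of 0.59. The median difference between the 2 samples of an age was 0.90 at E11 and 0.37 at E16. The shift is between means of 2 samples and these differences are between single samples, so they are not like measures. The ratio of the samples overlapped between ages in 28 hairpins. For miR-133a the log2 ratio was −4.14 and −3.76 at E11 and −4.95 and −4.71 at E16, so the 3p arm dominated more at E16. For miR-499 it was 5.22 and 3.39 at E11 and 4.07 and 4.79 at E16, and the ages overlapped. For miR-17 the ratio was 7.79 and 8.77 at E11 and 7.03 and 7.0 at E16, with the rare 3p arm on 16.8 and 16.5 CPM at E16. That arm had only 2 and 3 counts at E11, against 21 and 16 at E16, so the E11 ratios are imprecise.

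**Figure D5:**
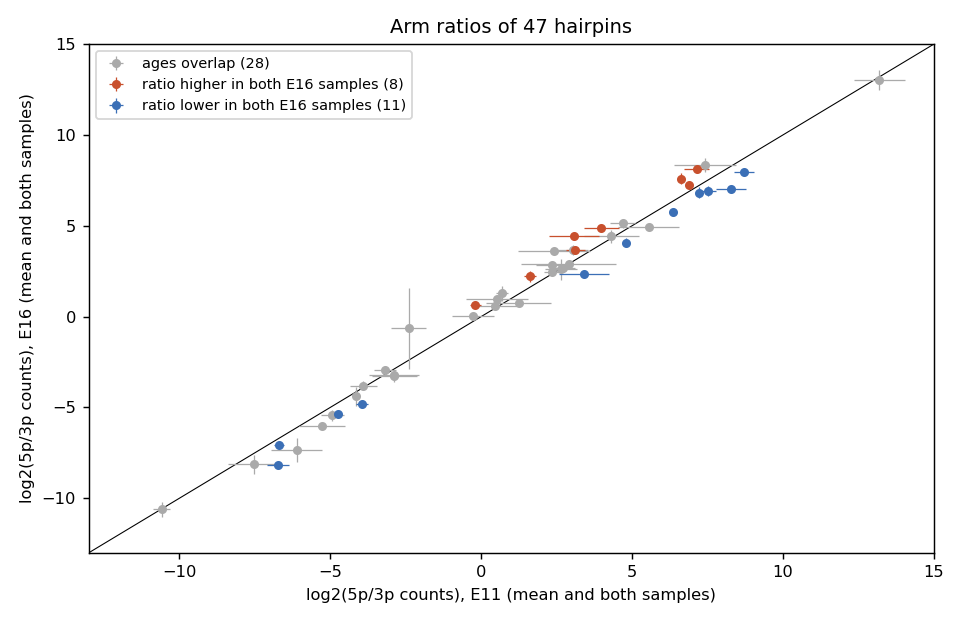
Log2 ratio of 5p to 3p counts (0.5 added to each) at E16 (vertical axis) against E11 (horizontal axis) for the 47 hairpins with both arms tested. Points are means, line ends are the 2 samples of an age and the diagonal marks equal ratios. Grey hairpins overlap between ages (28), red ones have a higher ratio in both E16 samples (8) and blue ones a lower ratio (11).

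The other named miRNAs that fell had few counts. Among the embryonic samples, only those of E11 carried them past the filter on low counts. Their direction is therefore not independent of the filter, and the ratios below do not correct for that. Of all tested entries with a mean under 100 CPM, 7 fell and 0 rose. miR-3528 had 5 and 16 counts at E11 and 1 and 0 at E16, a ratio of 45.0 for the depth of the libraries (95% exact interval 7.24 to 1861, counting error only). miR-1677-3p had 5 and 15 counts at E11 and 1 and 2 at E16 (ratio 14.3, interval 4.24 to 75.1). miR-1625-5p had 13 and 14 counts at E11 and 1 and 4 at E16 (log2 fold change −3.54, SE 0.78, adjusted p = 0.0392). None of these 3 was called in any fit that left out 1 library. Without E16 sample 1 the log2 fold changes were −7.55 for miR-3528, −3.04 for miR-1677-3p and −2.71 for miR-1625-5p, and without E16 sample 2 they were −4.24 for miR-3528 and −4.85 for miR-1625-5p. Of the 6 unnamed entries that fell, 1 had counts within 1.06-fold of those of miR-205b in every embryonic library. Another was within 1.23-fold of miR-205a in those libraries, and another had the counts of miR-31-5p to within 3 in every library. These 3 entries are not separate findings, although they are included in the 12 entries that fell and in the 4.15%. Among named miRNAs that missed the threshold, miR-184-3p was at 394 and 136 CPM in the E11 samples and 46.4 and 49.6 CPM at E16 (log2 fold change −2.46, SE 0.65, adjusted p = 0.0723), and miR-135a-5p at 20.4 and 66.3 CPM against 7.99 and 6.20 CPM (−2.64, SE 0.72, adjusted p = 0.0778). Without E11 sample 1 the fold changes were −1.38 for miR-184-3p and −3.08 for miR-135a-5p. Without E11 sample 2 they were −3.06 for miR-184-3p and −1.53 for miR-135a-5p.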

How the data were processed

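Small-RNA libraries of chicken leg muscle were read from 1 table per sample, each holding the entries with a value of 1 or more. An entry missing from a table was given 0. The deposited values were used as counts although the file headers call the column FPKM: all are whole numbers and the column totals differ between samples. Per the submitters' processing notes, Trim Galore, Bowtie, TopHat, Cufflinks and the build galGal4 were used, in roles the notes do not give. No source used here names the program that counted miRNAs.

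Counts were tested in R 4.3.3 with edgeR 4.0.16: filterByExpr (minimum count 10, minimum total 15), TMM scaling, and a quasi-likelihood F-test with 1 coefficient per age on all 6 samples (3 residual degrees of freedom, biological coefficient of variation 0.466). P-values were two-sided and adjusted by Benjamini-Hochberg over all 289 entries (threshold 0.05). The SE is the fold change divided by the root of F. The scripts were tested on simulated data. Replicates differed by more than sampling noise (chi-square per degree of freedom 264 at E11 and 171 at E16). Families were summed by miRNA number, since no mature sequences were at hand for grouping by seed. Alternatives were other scalings, no filter, DESeq2 1.42.0, limma 3.58.1 on log2(CPM + 1), subsets of entries and left-out samples. The limma fit was added after seeing the data. Intervals cover counting error only.

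The text names entries past the threshold, the 10 most abundant, up to 4 abundant members of each list, all tested muscle and epithelial members, the 5 nearest misses in each direction, and other arms. A few more (miR-489-3p and untested entries such as miR-31-3p) were added after their values were seen. The members, lists and rule were chosen with earlier results of these data known. miRNA gene positions relative to other genes came from RefSeq's GRCg7b annotation, by name.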

Additional observations from a re-analysis of the deposited data

How the results depend on the processing

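The fit as reported called 19 entries. Other fits called 46 with no filter on low counts (all 19 among them), 38 by DESeq2 (17 of the 19) and 12 with named entries alone. Fits with other scaling, the 4 embryonic samples, no epithelial list, 1 entry of each near-identical pair or limma called between 13 and 22. Leaving out 1 sample gave between 0 and 11, with the lone sample of an age assumed to vary like the others. Families (11 called) numbered 32 with no filter, 31 by DESeq2 and 7 among named entries alone, and between 0 and 6 with 1 sample left out. Families that rose made up 54.5% of calls with TMM and 22.2% with library totals. Over 56 miRNAs named and all alternatives, 767 of 880 values kept direction and side of the threshold, 67 lost the call, 29 gained one and 17 changed sign. Uncalled miRNAs that stayed uncalled count as kept. All 67 losses fell on the called miRNAs, none of which changed sign. miR-181a-5p (main −0.01) was 0.031 under median-of-ratios scaling and under DESeq2, 0.25 with no filter, 0.076 with 4 samples, 0.050 with the block, 0.12 by limma, and between −0.53 and 0.87 with 1 sample left out. miR-10b-5p (main 0.02) was −0.14 with library totals, −0.010 with named entries alone, −0.012 by limma, and between −0.15 and 0.35 with 1 sample left out. With 1 sample left out miR-10a-5p ranged from −1.90 to 0.82 (without E11 sample 2), and miR-451 from −0.15 (without E16 sample 1) to 1.08. miR-199-3p was −0.12 with library totals, and miR-146c-5p ranged from −1.18 to 0.15 (without E11 sample 1). The cause of these changes was not tested. The muscle share difference stayed between 6.20 and 6.76 points with 1 sample left out and was 10.3 points over named counts. The epithelial one stayed between −1.18 and −1.15 points and was −1.98 points over named counts.

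The samples share replicate numbers, and whether these pair them is not known. Deviations from the age mean correlated at 0.0013 between E11 and E16, −0.03 between E11 and hatchlings and 0.32 between E16 and hatchlings. Such correlations cannot show that a pairing or shared batch is absent. With the replicate number as a block, 13 entries and 5 families were called.

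The E11 libraries were the shallowest, so entries under 10 CPM there rest on a handful of counts. With 2 samples per age no permutation test can pass 0.05.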

Other observations

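Among entries with a mean of at least 100 CPM, 10 were over 4-fold apart between the E11 samples and 7 between the E16 samples. The values below compare samples of 1 age with each other. miR-215-5p, an intestinal and liver miRNA, was at 353 CPM in E11 sample 1 and at 28.8 CPM in E11 sample 2, and at 261 and 220 CPM at E16. miR-460a-5p went the other way, at 237 and 1211 CPM at E11, against 209 and 261 CPM at E16. miR-183, a miRNA of sensory organs, was at 202 CPM in E16 sample 1 and 38.2 CPM in E16 sample 2, and at 73.0 and 144 CPM at E11. miR-203a was likewise higher in E16 sample 1 (205 CPM) than in E16 sample 2 (37.2 CPM), and so were miR-429-3p and miR-200b-3p. These miRNAs were chosen after their values were seen.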
